A study of Mus musculus with 4 samples.

Results

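Tslp encodes thymic stromal lymphopoietin, a cytokine released by epithelial cells, and Crlf2 encodes the chain of its receptor that binds it. These 2 genes, of the 55450 in the deposited matrix, were followed across the cells of mouse 4T1 tumours. They were chosen by their symbols, and the choice was made with their measured values in view, in tumour cells with and without Cldn4, in fibroblasts and in immune cells, so their levels in those cells are given as a description and no test was made of them.

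Tumours of the mammary carcinoma line 4T1 were grown in female BALB/c mice of 6 to 8 weeks, each given 1000000 cells in the right flank. An intravenous injection followed on day 7, near-infrared light (980 nm at 1.0 W cm-2, for 5 min each time) was given on day 8, day 9 and day 10, and the tumours were taken on day 13. The injection was PBS in 2 samples and TIOs, macrophage-derived carriers of light-activated nanoparticles that had been frozen in liquid nitrogen, in 1 sample (TIOs+NIR3), and the labels of 1 further sample contradict each other. CD45+ cells were enriched by sorting before 10x Genomics single-cell sequencing, all groups received the light, and no source used here says whether a sample was 1 mouse or a pool. The 4 libraries are told apart by barcode suffix. The labels and methods do not tie a suffix to a sample, so treatments could not be compared, each library is of unknown treatment, and no p-value is given.

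Thymic stromal lymphopoietin is known as an epithelial alarmin of skin, gut and airway, made by keratinocytes and other barrier cells on injury, and also by fibroblasts. It binds Crlf2 with low affinity, and the pair then takes up Il7r, the interleukin-7 receptor alpha chain, which brings together the kinases JAK1 and JAK2 and activates STAT5. Dendritic cells, CD4 T cells, basophils and group 2 innate lymphoid cells are its best known targets, and in them it is associated with type 2 immunity.

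The RefSeq promoter windows of the 2 receptor chains differ in base composition, and bases from that of Crlf2 are shown. The chains also differed in how widely they were found, as described further on. Whether the 2 differences are linked was not tested, and 2 genes cannot show it. In RefSeq (GRCm38.p6), the 300 bases around the Crlf2 start were 71.7% G and C, higher than in 92.6% of 32851 promoter windows of that length, with a ratio of observed to expected CpG of 0.808. The window held 6 copies of the GC box (GGGCGG, or CCGCCC on the other strand, overlapping copies counted). At least 1 copy was held by 35.7% of all windows, and at least as many as in the Crlf2 window by 1.35%. The Il7r window was 45.7% G and C with an observed to expected CpG ratio of 0.0647 and held no copy of these letters. It lies at chr15:9529827-9530126 on the minus strand, inside the Il7r gene as annotated in GENCODE (chr15:9505788-9530176). The Il7r window thus holds no base upstream of the GENCODE start, and the contrast is between RefSeq windows only. The bases below lie upstream of every annotated Crlf2 start, on the minus strand at chr5:109559129-109559243 (115 bases), read 5′ to 3′ with the GC boxes in capitals.
Crlf2 upstream: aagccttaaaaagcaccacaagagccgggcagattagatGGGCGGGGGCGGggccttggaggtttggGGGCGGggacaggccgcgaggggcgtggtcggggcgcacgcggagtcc
Crlf2 itself lies on the minus strand at chr5:109554709-109558993. A match to these letters is a description of the sequence, and factor binding was not measured.

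Of 33064 barcodes, 32133 had at least 300 genes and at most 15% mitochondrial UMIs (unique molecular identifiers, 1 per captured transcript), and 21486 of those fell into 1 of 21 classes defined by marker genes. Tumour cells were those in which the keratins Krt8 and Krt18 made up at least 0.2% of UMIs and no UMI of the leukocyte gene Ptprc was found. All 70 markers that the gates did not use were more than 2-fold above the median of the other classes, among them Epcam at 929 counts per 1000000 UMIs (CPM) in tumour cells against a median of 22.5 CPM. All 3 check markers of the class of other T cells had their highest level elsewhere, and its Il33 level of 424 CPM was near that of fibroblasts (402 CPM), so it is called by its rule only. Despite the CD45 sort, 3587 cells without a Ptprc UMI were tumour cells by this rule, 3476 of them in library 1, 110 in library 2, 0 in library 3 and 1 in library 4. The libraries held 69255999 to 108646352 UMIs, and 101 barcode sequences occurred in more than 1 library, in 196 kept cells of which 25 were tumour cells. Intervals below are exact 95% intervals for counting error alone, and say nothing of differences between mice or of how unevenly cells share the UMIs.

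Most Tslp was counted in the tumour cells, and nearly all of those came from library 1. In all, 24089 Tslp UMIs were counted in 4718 of the kept cells, and of those in gated cells 88.9% (88.5 to 89.3) lay in tumour cells, which were 3587 of 21486 gated cells. Without library 1 the share in tumour cells was 5.22%, and 34.2% of the remaining 110 tumour cells of library 2 and 1 of library 4 had a Tslp UMI. The level in tumour cells was 248 CPM (244 to 251), and 66.9% of them (65.3 to 68.5) had at least 1 UMI, at a median depth of 17353 UMIs. Skin keratinocyte-like cells, 56 cells of library 1 gated on Krt5 together with Krt14 and Lgals7, came next at 134 CPM (112 to 159). All other classes were at 21.9 CPM or below. Pericytes (21.9 CPM), endothelial cells (19.7 CPM), CD8 T cells (17.8 CPM), other T cells (17.5 CPM) and fibroblasts (16.3 CPM) followed, and the intervals of neighbours in that order overlapped. Macrophages were at 9.30 CPM, neutrophils, which should lack the cytokine, at 4.30 CPM (3.21 to 5.64), CD4 T cells at 1.64 CPM, and none of the 54 plasmacytoid dendritic cells had a UMI, which allows a level of up to 10.3 CPM. In neutrophils, with a median of 1830 UMIs, 0.835% of cells had a Tslp UMI. After every cell was thinned to 1000 UMIs, 17.1% of 3401 tumour cells and 0.345% of 5509 neutrophils had one. The Tslp gene lies on the plus strand at chr18:32815383-32819797 (GRCm38).

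**Figure D1:**
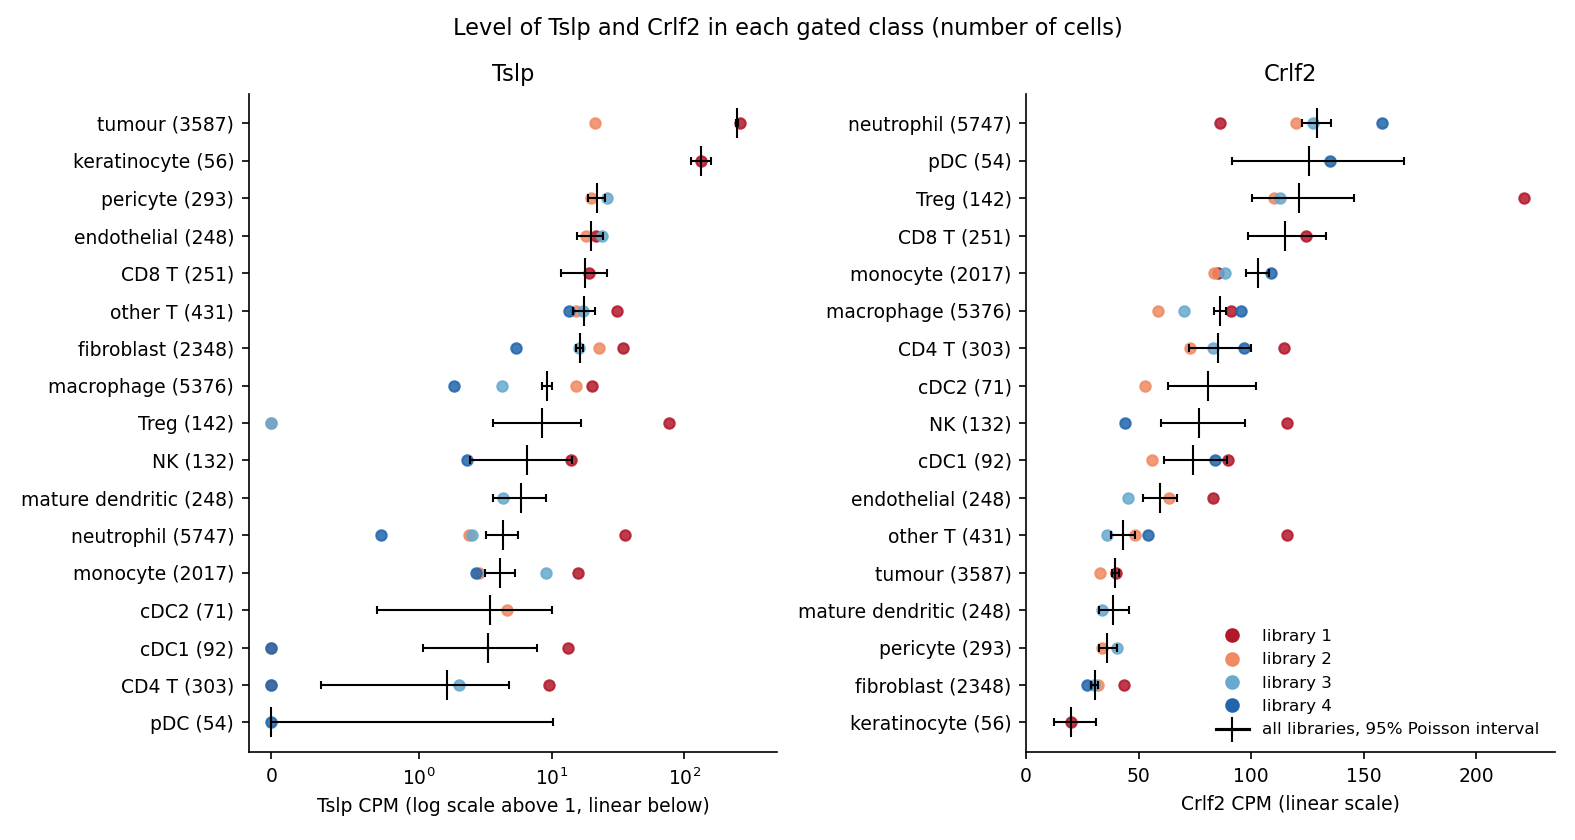
Counts per 1000000 UMIs (CPM) of Tslp (left, logarithmic above 1) and Crlf2 (right, linear) in each gated class with at least 50 cells. Coloured points are libraries with at least 20 cells of the class, and the black bar is the level over all libraries with its 95% Poisson interval. Over all libraries Tslp separates tumour cells and keratinocyte-like cells from the other classes, whereas Crlf2 runs from 20.04 to 129 CPM without such a gap. By library, the tumour cells of library 2 lie among the stromal classes. The regulatory T cells of library 1 (32 cells) lie in the Tslp gap at 77.0 CPM.

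The tumour cells of libraries 1 and 2 differed widely in Tslp, and also in some epithelial and fibroblast genes. In library 1 the level was 262 CPM (258 to 265, 3476 cells) and in library 2 it was 21.2 CPM (16.9 to 26.3, 110 cells), which was no higher than the 22.8 CPM (20.8 to 24.9) of the fibroblasts of that library. Epcam, an epithelial adhesion molecule, stood at 944 CPM in the tumour cells of library 1 and 678 CPM in those of library 2, and Cldn4, a tight junction protein, at 326 and 282.5 CPM. Cldn3 (181 against 75.1 CPM) and Cldn7 (107 against 51.05 CPM), further tight junction genes, were lower in library 2. Krt18 was also lower there (3647 against 1755 CPM), as was Lcn2, a secreted siderophore-binding protein (1465 against 304.5 CPM), whereas Krt19, another keratin, was higher (105 against 210 CPM). The tumour cells of library 2 also held more fibroblast RNA, with the collagen genes Col3a1 at 578.5 against 55.0 CPM and Col1a1 at 261 against 49.0 CPM, and Dcn, a matrix proteoglycan, at 90.2 against 14.6 CPM and in 87.3 against 10.6% of cells. Its part in the Tslp difference was not tested. The share with a Tslp UMI was 68.0% (2362 of 3476) in library 1 and 34.55% (38 of 110) in library 2, although the cells of library 2 were deeper, with a median of 34410.5 UMIs against 17091.5. The part that treatment, tumour sampling or library preparation has in this difference cannot be told apart. Each library is of unknown treatment and was taken as 1 sample.

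Within library 1 the Tslp UMIs were held by few tumour cells. No UMI was found in 32.0% of these cells, 1 UMI in 19.0%, 2 to 4 in 25.8%, 5 to 9 in 10.6% and 10 or more in 12.6%, and the highest cell had 184. The 10% of cells with most Tslp held 61.9% of its UMIs, and 6.36% of the cells held 50% of them. The share held by the top 10% was 45.2% for Cldn4, 38.1% for Epcam and 29.1% for Krt18. It was 53.3% for Lcn2 and 62.1% for Krt19, the 1 of these epithelial genes with a share like that of Tslp. Krt19 had only 6825 UMIs in these cells against 16936 of Tslp. Low counts by themselves raise such a share, so the 2 genes cannot be called equally uneven. Crlf2 in the same cells was less uneven, with 41.5% of its UMIs in the top 10%.

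**Figure D2:**
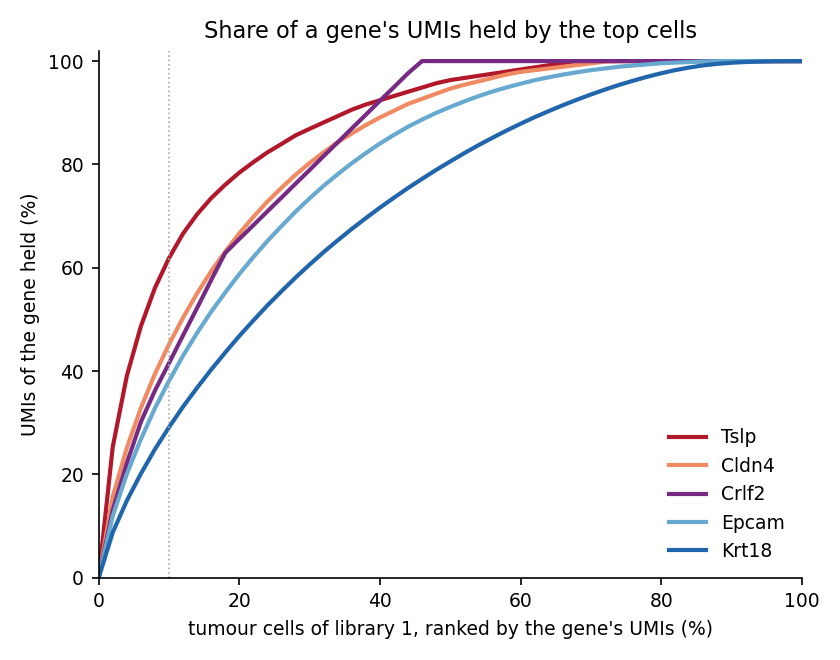
Percent of a gene's UMIs (vertical axis) held by the given percent of library 1 tumour cells, ranked from most to fewest UMIs of that gene (horizontal axis), for Tslp, Cldn4, Crlf2, Epcam and Krt18. The dotted line marks 10% of cells, where the Tslp line is at 61.9% and the Krt18 line at 29.1%.

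Tslp was higher in tumour cells with Cldn4 than in those without, and this is the split that the choice of these genes used. The level was 275 CPM (271 to 280) in 2606 tumour cells with a Cldn4 UMI and 110.4 CPM (104 to 117) in 981 without, a ratio of 2.49 (2.35 to 2.64). In library 1 the levels were 290.4 and 117 CPM. In library 2 they were 23.0 CPM (79 cells) and 12.8 CPM (31 cells), a ratio of 1.80 whose interval ran from 0.900 to 4.09. Cells with Cldn4 were deeper, with a median of 19442 UMIs against 9640, so the ratio was taken again within groups of depth. From the second shallowest to the deepest of 4 groups it was 1.75, 2.97 and 5.075, with medians of 14385 and 13871, 21060 and 20954, and 33178 and 30742 UMIs in cells with and without Cldn4. In the shallowest group it was 3.41, but there the depths still differed, with medians of 7070 and 1535 UMIs. In cells thinned to 5000 UMIs the ratio was 1.845 (1.73 to 1.97). The level of Tslp itself fell with depth among the cells with Cldn4, from 425 CPM in the shallowest group to 216 CPM in the deepest. In library 1 the level rose with the number of Cldn4 UMIs, from 117 CPM in cells with 0 to 178 with 1, 237 with 2 to 4 and 345 with 5 to 9, and was 336.5 CPM with 10 or more. At the edge of the gate, over all libraries, tumour cells with 0.2 to 0.3% keratin UMIs had 106 CPM. Cells just outside it, with 0.1 to 0.2% and no Ptprc UMI, had 60.7 CPM. In library 1 the levels were 129 and 92.4 CPM, and in library 2 the order was the other way, at 12.9 and 27.8 CPM.

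**Figure D3:**
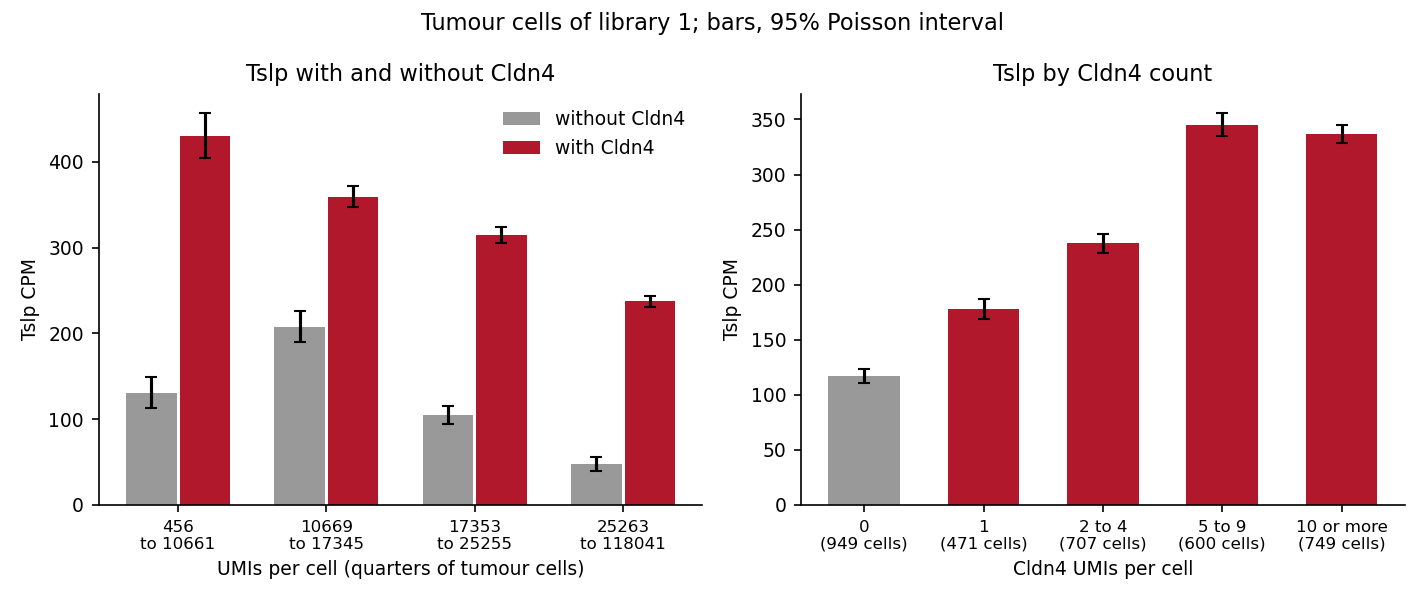
Tslp in counts per 1000000 UMIs (CPM) in tumour cells of library 1, on the left with (red) and without (grey) a Cldn4 UMI in 4 groups of UMIs per cell, on the right by the number of Cldn4 UMIs. Bars start at 0 and lines are 95% Poisson intervals. The red bar is above the grey one in each group, of which the shallowest still differs in depth between red and grey. On the right the level climbs from 117 to 345 CPM and is 336.5 CPM in the last bin. The number of Cldn4 UMIs also depends on depth.

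The same division was then made in library 1 by every gene of lists that cover epithelial and mesenchymal state, the cell cycle, NF-kB targets and known inducers of Tslp, in 2992 tumour cells thinned to 5000 UMIs so that depth did not set which cells held a gene. Over all 11768 genes with at least 20 cells on either side the median ratio of Tslp in cells with the gene to cells without was 0.976, with 45.2% above 1 and 54.8% below. The 5th and 95th percentiles of this ratio were 0.591 and 1.43. All 12 epithelial genes that could be divided were above 1, with a median of 1.496, and without Cldn4, whose split the choice of these genes used, all 11 were, with a median of 1.43. How far these 11 genes share their cells with Cldn4 was not tested, so their count is a description too. The highest were Epcam (3.17), the tight junction gene Cldn3 (2.04), Krt19 (1.97), Cldn4 (1.83) and Lcn2 (1.72), and the lowest was the adherens junction gene Cdh1 (1.13). These 5 highest genes and Krt7 (1.56) lay above the 95th percentile of all genes, and the others lay at or below it. Krt8 and Krt18, which defined the gate, were in too many cells to divide.

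In library 1, cells that held mesenchymal or cell cycle transcripts mostly had less Tslp, but 54.8% of all genes were also below 1. Of 7 mesenchymal genes 6 were below 1, among them Vim, an intermediate filament (0.411), and Zeb1 and Zeb2, repressors of epithelial genes (0.718 and 0.715). The exception was Fn1, the matrix protein fibronectin (2.58). Of the 7 only Vim lay below the 5th percentile of all genes (0.591). The interval of Zeb1, which was found in 29 of the thinned cells, ran from 0.484 to 1.03. The Vim ratio was 1.295 before thinning, when 87 cells lacked it, so its direction changed with the depth of the cells. All 5 cell cycle genes were below 1, from Birc5, a mitotic survivin (0.460), and the proliferation marker Mki67 (0.510) to the mitotic kinase Cdk1 (0.743). Only Birc5 and Mki67 of these lay below the 5th percentile of all genes. When the tumour cells with and without Tslp were compared with equal weight on libraries 1 and 2, the direction was mixed. The mean fold was 1.12 for the topoisomerase gene Top2a, 1.08 for Mki67 and 1.14 for Cdk1, but 0.915 for Ccnb1 and 0.959 for Birc5. In library 1 alone the folds were 0.688, 0.6585, 0.890, 0.901 and 0.864 in that order. Library 2 had only 38 positive cells, so its equal weight rests on few cells.

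Among NF-kB targets 7 of 10 were above 1, with a median of 1.13. The neutrophil chemokine Cxcl5 (1.67), the inhibitor Nfkbia (1.62), and Cxcl1 (1.5) were highest, and Cxcl3 (0.590), Icam1 (0.816) and Cxcl2 (0.917) were below 1. Relb and Nfkb2 went from below 1 before thinning (0.878 and 0.822) to above 1 after it (1.14 and 1.03). Of the inducers, Rxra and Vdr, the nuclear receptors through which retinoids and vitamin D act on Tslp, were at 1.47 and 1.29, F2rl1, the protease-activated receptor PAR2, was at 1.25, Il1r1, the interleukin-1 receptor, at 1.17 and Tlr3, a sensor of double-stranded RNA, at 1.02. Il4ra, a chain of the interleukin-4 receptor, was the 1 inducer of 6 below 1, at 0.962. Of these targets and inducers, only Cxcl5, Nfkbia, Cxcl1 and Rxra lay above the 95th percentile of all genes (1.43). These ratios compare cells of 1 library and have no replicate. With equal weight on libraries 1 and 2, the mean fold of tumour cells with over without Tslp was 1.67 for F2rl1 and 1.17 for Il1r1. It was below 1 for Il4ra (0.967), Rxra (0.918), Vdr (0.874) and Tlr3 (0.800).

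**Figure D4:**
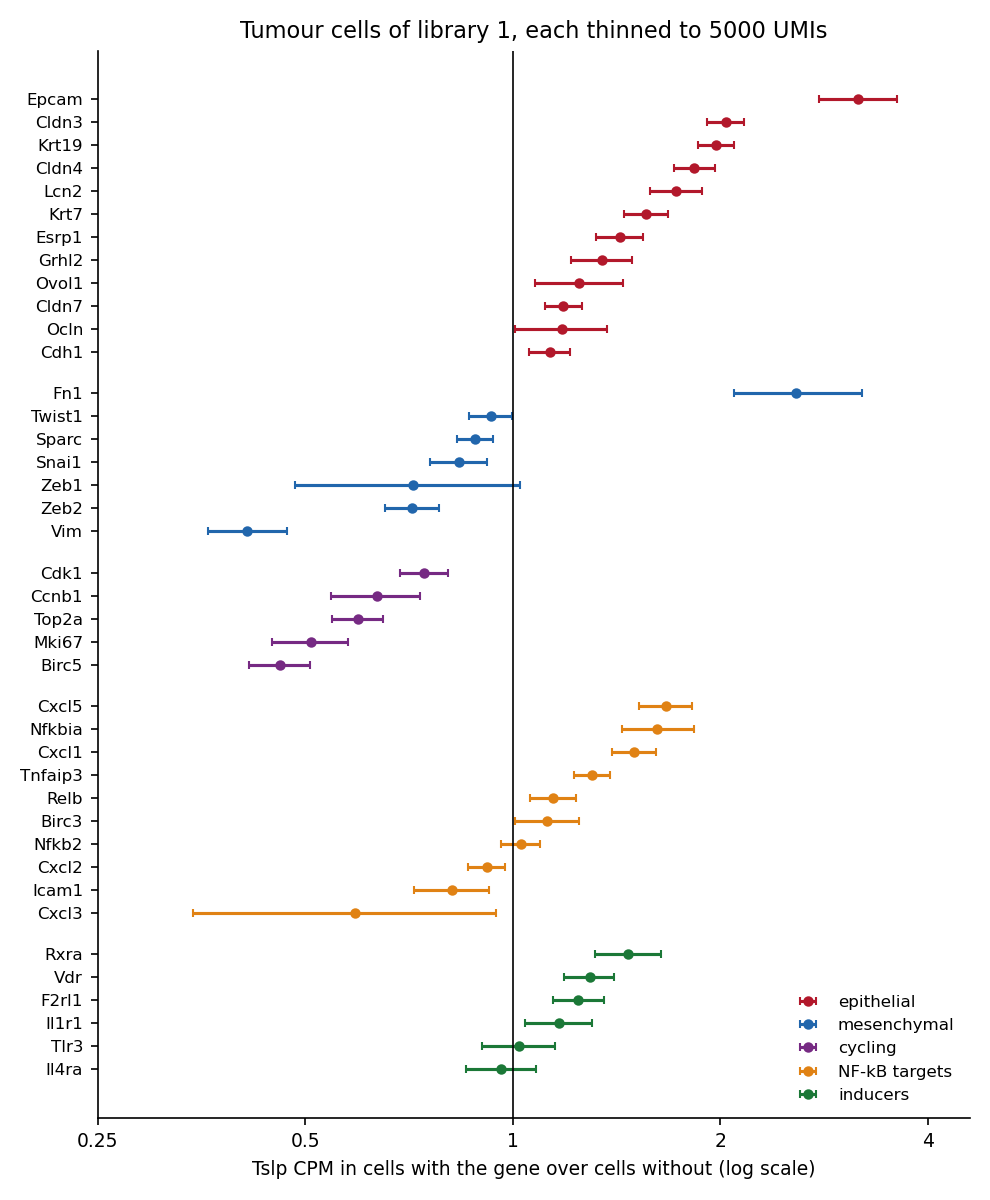
Ratio of Tslp CPM in library 1 tumour cells with a UMI of the named gene to those without (horizontal, logarithmic), after each cell was thinned to 5000 UMIs, with 95% intervals for counting error. Epithelial genes (red) lie to the right of 1 from 1.13 to 3.17, cell cycle genes (purple) to the left from 0.460 to 0.743, and mesenchymal genes (blue) to the left apart from Fn1.

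Few genes differed by 2-fold between tumour cells with and without Tslp. When both libraries 1 and 2 were required to show it, none of 1367 genes at 100 CPM or more was 2-fold higher in Tslp-positive cells (0%), and 1 was 2-fold lower (0.0732%), the non-coding Gm26917 at 0.3495-fold, which was not 2-fold lower in both libraries once the negative cells were weighted to the depth of the positive ones. Library 2 added only 38 positive cells, so library 1 was also taken alone, a choice made after its values were seen. There 3 of 1490 genes were 2-fold higher (0.201%), the surface antigen gene Ly6c1 (173 against 67.9 CPM, 2.55-fold), Krt19 (118 against 57.5 CPM) and Fgfbp1, a carrier of fibroblast growth factors (131 against 65.6 CPM), and 2 were lower (0.134%), Gm26917 and the neutrophil gene S100a9, neither of which stayed past 2-fold at matched depth.

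The tumour cells with 10 or more Tslp UMIs stood further from those with none. Of 1536 genes, 15 were at least 2-fold higher (0.977%) in these 438 cells than in the 1114 without Tslp, and 3 were at least 2-fold lower (0.195%), with 13 and 2 of them past 2-fold at matched depth as well. Ly6c1 stood at 319 CPM in the former and 67.9 CPM in the latter (4.695-fold), and Ly6a, the stem cell antigen Sca-1, at 1080 and 451 CPM (2.39-fold). Other surface and secreted factors were Ramp1, a subunit of the receptor for the neuropeptide CGRP (112 against 29.6 CPM), and Fgfbp1 (232.5 against 65.6 CPM). Epithelial genes on the higher side were Krt19 (199 against 57.5 CPM), Cldn3 (316 against 104 CPM), Krt7 (895 against 349 CPM), Krt14, a basal keratin (507 against 226 CPM), and Fxyd3, a regulator of the sodium pump (388 against 176 CPM). The gelatinase Mmp9 was at 2.325-fold, or 1.73-fold at matched depth. On the lower side, Serpine2, an extracellular protease inhibitor, stood at 22.9 against 107 CPM (0.214-fold) and Top2a, a topoisomerase of dividing cells, at 97.0 against 201.0 CPM (0.483-fold). These are pooled levels of 2 sets of cells of 1 library, with no replicate.

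Outside the tumour cells, Tslp was found in stromal cells, also in library 3, which held no tumour cell by the gate. In fibroblasts the level was 34.6, 22.8, 16.0 and 5.38 CPM in libraries 1 to 4, against 35.8, 2.39, 2.50 and 0.742 CPM in the neutrophils of the same libraries. Libraries 2, 3 and 4 thus had more in fibroblasts than in neutrophils, while library 1 did not. In library 3, pericytes had 26.1 CPM (20.6 to 32.7), endothelial cells 23.9 CPM (15.9 to 34.6) and fibroblasts 16.0 CPM (14.2 to 18.0), where Epcam was at 0, 0 and 0.179 CPM. Cldn3 was at 0, 0 and 0.0598 CPM in these classes and Cldn4 at 0.340, 7.685 and 0.0598 CPM, while Krt19 was at 16.3, 3.42 and 12.1 CPM, about its level in the fibroblasts of library 1 (16.2 CPM) for the first and the last. Few cells carried most of the fibroblast Tslp, with 75.05% of the fibroblast UMIs in the top 10% of fibroblasts and a highest cell of 42 UMIs. Only 19.7% of fibroblasts had a Tslp UMI (914 UMIs in 2348 cells). Such low counts by themselves raise the share of the top cells, so it cannot be set against that of the tumour cells. By fibroblast state the level was 19.3 CPM in fibroblasts with the tumour fibroblast gene Lrrc15 and 14.3 CPM in those with the universal fibroblast gene Dpt and no Lrrc15, but within library 2 it was 22.8 and 23.7 CPM and within library 3 17.0 and 14.3 CPM, with overlapping intervals. This split was chosen after the values were seen. None of 1274 genes was 2-fold higher or lower in Tslp-positive fibroblasts in all 4 libraries.

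In library 1, other classes held epithelial RNA as well as Tslp. Neutrophils of that library had 13.7% of the tumour cell level of Tslp, and 4.68 to 12.7% (median 10.3%) of the tumour cell levels of 6 epithelial genes (Epcam, Cldn3, Cldn4, Cldn7, Krt7 and Krt19). Macrophages had 7.71% for Tslp against a median of 6.46%, and CD8 T cells, 231 of 251 of which came from library 1, had 7.36% against 8.62%. Fibroblasts had 13.2% for Tslp against a median of 8.28%. Regulatory T cells of library 1 (77.0 CPM, 8 UMIs in 32 cells) had 29.4% for Tslp against 0 to 27.4% (median 11.5%), and those of the other 3 libraries had no Tslp UMI. By these values Tslp lay above all 6 genes in neutrophils and regulatory T cells, above 5 of 6 in macrophages and fibroblasts and above 2 of 6 in CD8 T cells. These ranks take no account of counting error. The neutrophil level rests on 29 Tslp UMIs in 404 cells (35.8 CPM, 24.0 to 51.4), and the interval of the regulatory T cells was 33.2 to 151.6 CPM. Keratinocyte-like cells were also above all 6, at 51.4% for Tslp and between 9.51 and 40.3% for the 6 genes. Tumour cells in turn carried transcripts of other classes, such as C1qa of macrophages in 73.2% and S100a8 of neutrophils in 69.7% of those in library 1. How far free RNA or joined cells account for these values was not tested.

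Crlf2 was found in all 21 classes. There were 19720 UMIs in 12018 kept cells. Of those in gated cells, 63.9% (63.0 to 64.6) lay in immune classes, which were 14954 of 21486 gated cells. Macrophages held 32.7%, tumour cells 19.6% and fibroblasts 12.3%. Classes differ in UMIs per cell, so these shares do not give the level. The level was 90.05 CPM in the immune classes together and 58.5 CPM in all gated cells. Among classes of at least 50 cells the level over all libraries was highest in neutrophils at 129 CPM (123 to 136), followed by plasmacytoid dendritic cells (126 CPM), regulatory T cells (121 CPM), CD8 T cells (115 CPM) and monocytes (103 CPM), and the intervals of these neighbours overlapped. Macrophages (86.2 CPM), CD4 T cells (85.5 CPM), cDC2 (81.0 CPM), NK cells (76.8 CPM) and cDC1 (74.3 CPM) came next, with intervals that overlapped between neighbours. The interval of macrophages (83.7 to 88.7) lay below that of monocytes (97.9 to 108), whereas those of CD4 T cells (lower bound 72.6) and cDC2 (lower bound 63.2) overlapped it. Endothelial cells were at 59.3 CPM. Tumour cells (39.7 CPM), mature dendritic cells (38.8 CPM), pericytes (36.1 CPM), fibroblasts (30.5 CPM) and keratinocyte-like cells (20.04 CPM) were lowest. Neutrophils had few UMIs each, so only 22.2% of them had a Crlf2 UMI against 46.2% of tumour cells, and after thinning to 1000 UMIs the shares were 12.5% and 4.12%. Most immune cells also held a keratin or collagen UMI, and only 1447 held none of Krt8, Krt18, Col1a1, Col1a2 and Col3a1. With these alone kept beside all other gated cells, the immune share of Crlf2 UMIs was 7.04%. That fall follows from the number of immune cells left out and says nothing of their Crlf2 level.

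The level within a class varied between libraries. In neutrophils it was 86.4, 120.1, 128 and 158 CPM in libraries 1 to 4, lowest in library 1, whose interval (67.3 to 109) lay below those of the other 3. Neutrophils had the highest level in libraries 2, 3 and 4, but in library 1, with 404 of the 5747 neutrophils, they ranked 8 of 13 classes and regulatory T cells were highest at 221 CPM (140.3 to 332, 32 cells). In macrophages it was 91.0, 58.8, 70.3 and 95.6 CPM, higher in libraries 1 and 4 than in 2 and 3, so the libraries did not keep 1 order across classes. Monocytes had 85.3, 83.4, 88.5 and 109 CPM. Fibroblasts had 43.5, 32.1, 30.1 and 27.0 CPM and tumour cells 40.1 and 32.8 CPM in libraries 1 and 2, a much smaller gap than that of Tslp in those cells. Tumour cells of library 1 had the same Crlf2 level whether Tslp was present (40.2 CPM, 38.5 to 42.0) or not (39.8 CPM, 36.5 to 43.3).

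Mature dendritic cells, a textbook target of the cytokine, had the lowest Crlf2 level of the immune classes with at least 50 cells, at 38.8 CPM (32.6 to 45.9) in 248 cells, an interval that overlapped that of other T cells (42.9 CPM, 37.9 to 48.3). Of these cells 208 came from library 3, where the level was 33.8 CPM (27.5 to 41.0), while 18 cells of library 1 had 74.2 CPM (42.4 to 120.5) and 19 of library 2 had 46.9 CPM (25.0 to 80.2). Without library 3 the level was 67.4 CPM, so the rank rests on that library. The fibroblasts of library 3 had a similar Crlf2 level, at 30.1 CPM. The mature dendritic class also held Il33 at 227.5 CPM, against 402 CPM in fibroblasts and 31.67 CPM in neutrophils. Of its 4 check markers, 3 were highest in this class. How far stromal RNA or stromal cells in the gate lower its Crlf2 level was not tested. Some genes that the cytokine induces in dendritic cells were at their highest level in mature dendritic cells among the classes of at least 50 cells. They were the chemokines Ccl22 (725 CPM) and Ccl17 (86.6 CPM), the costimulator Cd40 (234 CPM) and Tnfsf4, the ligand of OX40 (21.9 CPM). Ccl22 was among the genes that gated these cells, so its level was set in part by the gate. Whether the cytokine acted on these cells was not tested. Among the same classes Cd80 was highest in neutrophils (57.6 CPM) and Cd86 in cDC1 (137 CPM).

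In neutrophils, no well expressed gene differed by 2-fold in every library between cells with and without Crlf2. Of 989 genes at 100 CPM or more, none was at least 2-fold higher (0%) or lower (0%) in the 1278 positive against the 4469 negative cells in all 4 libraries. The negative cells had a median of 1795 UMIs, so many may hold Crlf2 that was not counted, and library 1 had only 65 positive cells. The comparison therefore cannot decide whether neutrophils that express Crlf2 differ from the rest. Il7r, too low to be among the 989 genes, was at 18.4 CPM in the positive and 5.78 CPM in the negative cells, as means over the libraries. Only 20 positive cells had an Il7r UMI. That was 1.57% (0.959 to 2.41) of the positive cells against 0.962% (0.697 to 1.29) of the negative ones, with overlapping intervals.

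Il7r, the chain that completes the receptor, was far more restricted than Crlf2. It stood at 512 CPM in regulatory T cells, 477 CPM in CD4 T cells, 402 CPM in plasmacytoid dendritic cells, 215 CPM in CD8 T cells, 125 CPM in mature dendritic cells and 105 to 108 CPM in macrophages and monocytes. It was at 28.5 CPM in NK cells, 8.52 CPM in neutrophils, 1.34 CPM in cDC1 and 1.18 CPM in tumour cells. Regulatory T cells and plasmacytoid dendritic cells were thus high for both chains, whereas neutrophils, highest for Crlf2 in 3 of 4 libraries, had little Il7r.

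Cells with UMIs of both chains were 1571 of 14954 immune cells (10.51%), and 948 of all 1677 gated cells with both were macrophages. The share was 40.7% (27.6 to 55.0) in plasmacytoid dendritic cells, 37.3% in regulatory T cells, 27.9% in CD8 T cells, 24.8% in CD4 T cells, 19.7% in cDC2, 17.6% (16.6 to 18.7) in macrophages, 15.7% (11.4 to 20.9) in mature dendritic cells and 12.7% in monocytes. It was 0.348% (0.213 to 0.537) in neutrophils, 0.948% in tumour cells and 2.17% in cDC1, although 70.7% of the cDC1 had Crlf2. Among the small classes, 5 of 16 ILC2 and 6 of 44 basophils had both. In Crlf2-positive immune cells 27.6% (26.4 to 28.8) had Il7r, against 16.4% (15.7 to 17.2) of Crlf2-negative ones. After thinning to 1000 UMIs the shares were 6.79% (5.57 to 8.19) and 7.79% (7.34 to 8.26). Thinning also changed the mix of classes. Neutrophils, with little Il7r, were 1278 of 5693 Crlf2-positive immune cells before it and 690 of 1487 after it. Within classes the thinned shares went both ways with overlapping intervals, at 61.9 and 46.2% in regulatory T cells and 8.45 and 9.76% in monocytes. The pooled shares therefore cannot settle whether Il7r goes with Crlf2 at equal depth. By library the share with both was 11.7, 3.67, 8.28 and 15.9% of immune cells.

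**Figure D5:**
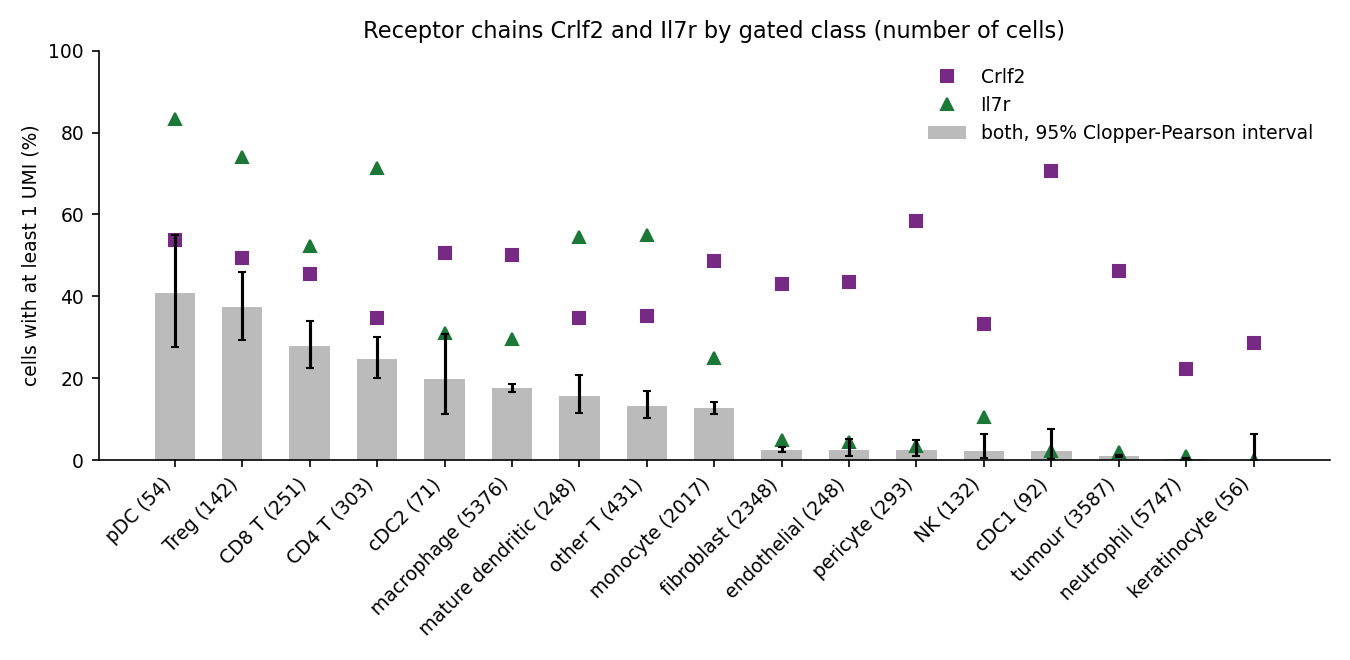
Percent of cells with at least 1 UMI of Crlf2 (squares), of Il7r (triangles) and of both (grey bars with 95% Clopper-Pearson intervals) in gated classes of at least 50 cells, ordered by the share with both. Crlf2 lies above 20% in every class, while Il7r falls from 83.3% in plasmacytoid dendritic cells to 1.10% in neutrophils and 0% in keratinocyte-like cells.

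The remaining genes of the pathway are given by the class of at least 50 cells in which they were highest. Il2rg, the common gamma chain with which Il7r forms the receptor of interleukin-7, was highest in CD4 T cells (243 CPM) and regulatory T cells (203 CPM) and was at 1.83 CPM in tumour cells. Jak2, the kinase on Crlf2, was highest in CD4 T cells (240.0 CPM) and at 62.1 CPM in tumour cells, while Jak1 was at 85.2 CPM in tumour cells and 428 CPM in NK cells. Stat5a and Stat5b peaked in regulatory T cells (72.8 and 108 CPM). Of 6 inducers, F2rl1 alone had its highest level in tumour cells (26.2 CPM), and it did not follow the gap between libraries, with 25.8 CPM in library 1 and 33.1 CPM in library 2. Of the other alarmins, Il33 was highest in other classes and Il25 was too rare to place. Il33 was at 806 CPM in pericytes and 402 CPM in fibroblasts but 2.42 CPM in tumour cells, and 3 UMIs of Il25 were found in gated cells. Among classes of at least 50 cells the type 2 cytokines Il13 (342 CPM), Il4 (40.0 CPM) and Il5 (36.7 CPM) were highest in CD4 T cells. In the smaller classes Il5 was at 408.5 CPM and Il13 at 90.2 CPM in the 16 ILC2, and Il4 at 293 CPM in the 44 basophils. Il9 had 4 UMIs in gated cells.

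The genes whose levels most resembled those of the members were sought over 44 units of 1 class in 1 library with at least 20 cells, by Pearson correlation of log2(CPM + 10) among 14549 genes. Units of 1 library share its depth and free RNA, and the values are a description. Tslp was most like Tcim (r = 0.838), followed by Fbxo2 (0.791), Cldn3 (0.786), Porcn (0.785), Cldn4 (0.780), Serinc2 (0.771), Pawr (0.768), Hbegf, an EGF receptor ligand (0.767), Rab25, an epithelial trafficking GTPase (0.758), and Rhod (0.757). Only 3 of these 10 remained among the top 10 with a pseudocount of 1, and only Tcim with units of at least 50 cells. Crlf2 was most like Arhgap9 (0.855), Gmfg (0.846), the DNA sensor Aim2 (0.841), Hcls1 (0.818), 9930111J21Rik2 (0.812), the leukocyte actin bundler Lcp1 (0.812), the leukocyte GTPase Rac2 (0.811), Fxyd5 (0.810), Sirt7 (0.809) and Glipr1 (0.808), of which 6 and 5 remained under those changes. The correlation of Crlf2 with Il7r was 0.492, that of Tslp with F2rl1 0.584 and that of Tslp with Crlf2 -0.324.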

How the data were processed

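The authors deposited 1 matrix of UMI counts for 55450 genes and 33064 barcodes, to which the filter given below had not been applied. It was made with Cell Ranger (version 6.1.2 in the file header, 3.0.2 in the methods, 2.1.1 in the submitters' processing notes, which name mm10). The methods name Cell Ranger also for filtering and for joining the runs, and whether depth was evened out in that step is not stated. All gene IDs occur in GENCODE vM21, which gave positions. The filter of 300 genes and 15% mitochondrial UMIs left 32133 cells, whereas the labels state 15603. Cells were gated by marker UMIs, and those passing several gates (1690) or none (8957) were left out of classes. Levels are summed UMIs per 1000000. Intervals are exact (Poisson, Clopper-Pearson, conditional binomial). Thinning drew UMIs without replacement, leaving out shallower cells (186 tumour cells at 1000 and 493 at 5000 UMIs). A gene was named past 2-fold when all libraries with 20 positive cells agreed and the higher side had 100 CPM, the 10 largest each way. Python 3.11.15, numpy 2.4.6, scipy 1.17.1, pandas 2.3.3 and scanpy 1.11.5 were used. Scrublet marked 3.57, 0.0232, 0.0442 and 0.0338% of libraries 1 to 4, under 0.5% in 3 of them, so it did not work there and doublets were kept. Scripts were tested on simulated data. The members and the gene lists were chosen with earlier results of these data known.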

Additional observations from a re-analysis of the deposited data

Results flagged for a closer look

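Tslp signal was present in cells that the classes above do not use. The 1737 cells of library 1 that met no gate had Tslp at 176.5 CPM (171 to 182), against 21.6, 19.2 and 6.83 CPM in the ungated cells of libraries 2 to 4 and 35.8 CPM in the neutrophils of library 1. Most of it lay in 624 cells of library 1 with keratins at or above 0.2% of UMIs and a Ptprc UMI, which the tumour gate left out and which had 217.7 CPM (210.2 to 225), and 68.3% of them had a Tslp UMI. Barcodes of library 1 removed by the filter on genes and mitochondrial UMIs had 102.7 CPM (68.8 to 148, 29 UMIs in 264 barcodes).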

How the results depend on the processing

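Of 80 alternatives for 6 summary values, 45 moved them by less than their 95% counting interval, and 35 moved them further. The ratio of Tslp between tumour cells with and without Cldn4 (2.49) was 1.571 when all cells were thinned to 1000 UMIs. It was 1.845 when tumour cells were thinned to 5000 and 2.188 with keratins at 0.5% or more. For 2 or more Cldn4 UMIs against 0 it was 2.655, and as the mean over the depth groups 3.082. Without library 1 it was 1.812, with an interval of 0.9051 to 4.115 that includes 1. All 17 alternatives gave a value above 1. They draw on the same cells and on the split used to choose these genes, so this is a description. The share of Tslp UMIs in tumour cells (88.9%) was 89.57% without the top 5% of Scrublet scores, 85.6% thinned, 5.217, 92.9, 91.41 and 89.71% without libraries 1 to 4 in turn, 90.07 and 76.2% with keratins at 0.1 and 0.5%, 85.94% without tumour cells that met another gate and 87.9% without those with Krt5 and Lgals7. The share of tumour cells with Tslp (66.9%) was 69.02% with at least 500 genes, 17.11% thinned, 34.23% without library 1, 61.56 and 74.49% with keratins at 0.1 and 0.5%, 64.91% without tumour cells that met another gate, and 48.03% at 2 or more UMIs.

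The immune share of Crlf2 UMIs (63.9%) was 87.55% thinned, and 75.78, 66.19, 62.76 and 50.05% without libraries 1 to 4. It was 7.037% without immune cells holding keratin or collagen UMIs, since only 1447 immune cells then remained beside all other gated cells. Crlf2 in mature dendritic cells (38.8 CPM) was 67.42 CPM without library 3, which held 208 of those 248 cells. The share of Crlf2-positive immune cells with Il7r (27.6%) was 6.792% thinned, when that of Crlf2-negative cells was the higher at 7.79%, 30.46 and 22.24% without libraries 2 and 4, 22.88% at 2 or more UMIs and 11.5% without cells holding keratin or collagen UMIs. Leaving out the barcode sequences shared between libraries moved none of the 6. The cause of each move was not tested beyond what the change itself removes.

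The restriction to library 1, the cells with 10 or more Tslp UMIs, the fibroblast split and the shared barcodes were chosen after seeing the data. No paired analysis was possible because the libraries carry no sample labels. Each library was taken as 1 sample, which no source used here states, so differences between libraries have no replicate. Tslp UMIs lay in few cells, so counting intervals are narrower than the spread between cells.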
